A study of Homo sapiens with 12 samples.

Results

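The comparison described here is the acute knockdown of APC in HT-29, an established colon adenocarcinoma cell line. It used 6 of the 12 RNA-seq libraries of the study, 3 labelled shAPC and 3 labelled shNT1. All 6 came from HT-29 cells recorded as APC mutant, grown in McCoy medium with fetal bovine serum, infected with lentivirus carrying a short hairpin RNA, and collected 1 day after induction with 2 µM doxycycline. The groups differed in the hairpin, which was directed against APC or was the control named shNT1, so virus and doxycycline were common to both. The labels do not describe the hairpin against APC further, and they do not say whether the 3 libraries of a group came from separate cultures. The p-values below therefore measure the spread between these libraries, which may be technical. The genes were those with a mean of at least 1 TPM (a relative abundance corrected for transcript length) over the 6 libraries, which held for 11834 of the 25528 rows of the expression table. Fold changes are shAPC minus shNT1 on the scale of log2(TPM + 1), so changes of weakly expressed genes are understated.

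APC is a scaffold on which beta-catenin, encoded by CTNNB1, is phosphorylated and so sent for degradation. When that complex fails, beta-catenin accumulates, enters the nucleus and activates WNT target genes together with TCF and LEF factors. In the normal colon this pathway maintains stem cells at the crypt base, while goblet cells, which secrete mucus, and absorptive enterocytes mature away from it. HT-29 cells carry truncated APC, so the hairpin lowered an APC that was already defective, and HT-29 also expresses goblet cell and enterocyte genes.

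APC (ENSG00000134982) measured 15.8, 16.1 and 17.3 TPM in the shNT1 libraries and 6.59, 5.91 and 5.48 TPM in the shAPC libraries. The groups did not overlap, and the knockdown amounted to a log2 fold change of -1.32 (SE 0.08, limma with Benjamini-Hochberg adjustment, adjusted p = 6.1e-06), so every library carried the APC level its label implies. The transcript of CTNNB1 itself lay between 145 and 156 TPM in shNT1 and between 140 and 155 TPM in shAPC and was not called (adjusted p = 0.97). Between 14756 and 16186 genes were above 0 TPM per library, the fewest in shNT1 replicate 3, and Pearson correlations of log2(TPM + 1) within a group ranged from 0.991 to 0.996. The 10 most abundant genes held between 9.11% and 11.3% of the TPM, and sequencing depth is unknown because TPM does not keep it. Of 9 intestinal epithelial markers, 7 had a mean of at least 1 TPM, while CDX2 and CDH17 lay below 1 TPM in all 6 libraries. Fibroblast, endothelial and neuronal marker sums were at most 1.6, 0.478 and 0 TPM. Among 6 leukocyte markers, PTPRC, CD3E and TYROBP were at 0 TPM in every library, and the sum of the list, nearly all of it CD68, went from between 13 and 14.5 TPM in shNT1 to between 6.11 and 8.43 TPM in shAPC.

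Of the 11834 genes, 2615 (22.1%) were called at an adjusted p under 0.05 by limma, 857 higher (7.24%) and 1758 lower (14.9%). The groups did not overlap for 4837 genes (40.9%). Most called changes were small, with a median absolute log2 fold change of 0.33 against 0.13 over all genes. Only 62 called genes rose and 26 fell by at least 1 on the log2 scale. The balance of directions depended on scaling, because higher calls made up 32.8% of the calls for TPM as deposited, 44.3% after median-ratio scaling and 49.4% after quantile normalization. Over all genes the median fold change on the log2 scale, -0.04 as deposited, was -0.0051 and -0.0034 under those scalings. Leaving out shAPC replicate 2 lowered the number of called genes to 1646 (559 higher and 1087 lower) and leaving out shAPC replicate 3 lowered it to 1484 (909 of them lower), while 550 were higher without shAPC replicate 1. Shares of called genes within the functional lists below are to be read against the 7.24% and 14.9% of all genes.

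**Figure D1:**
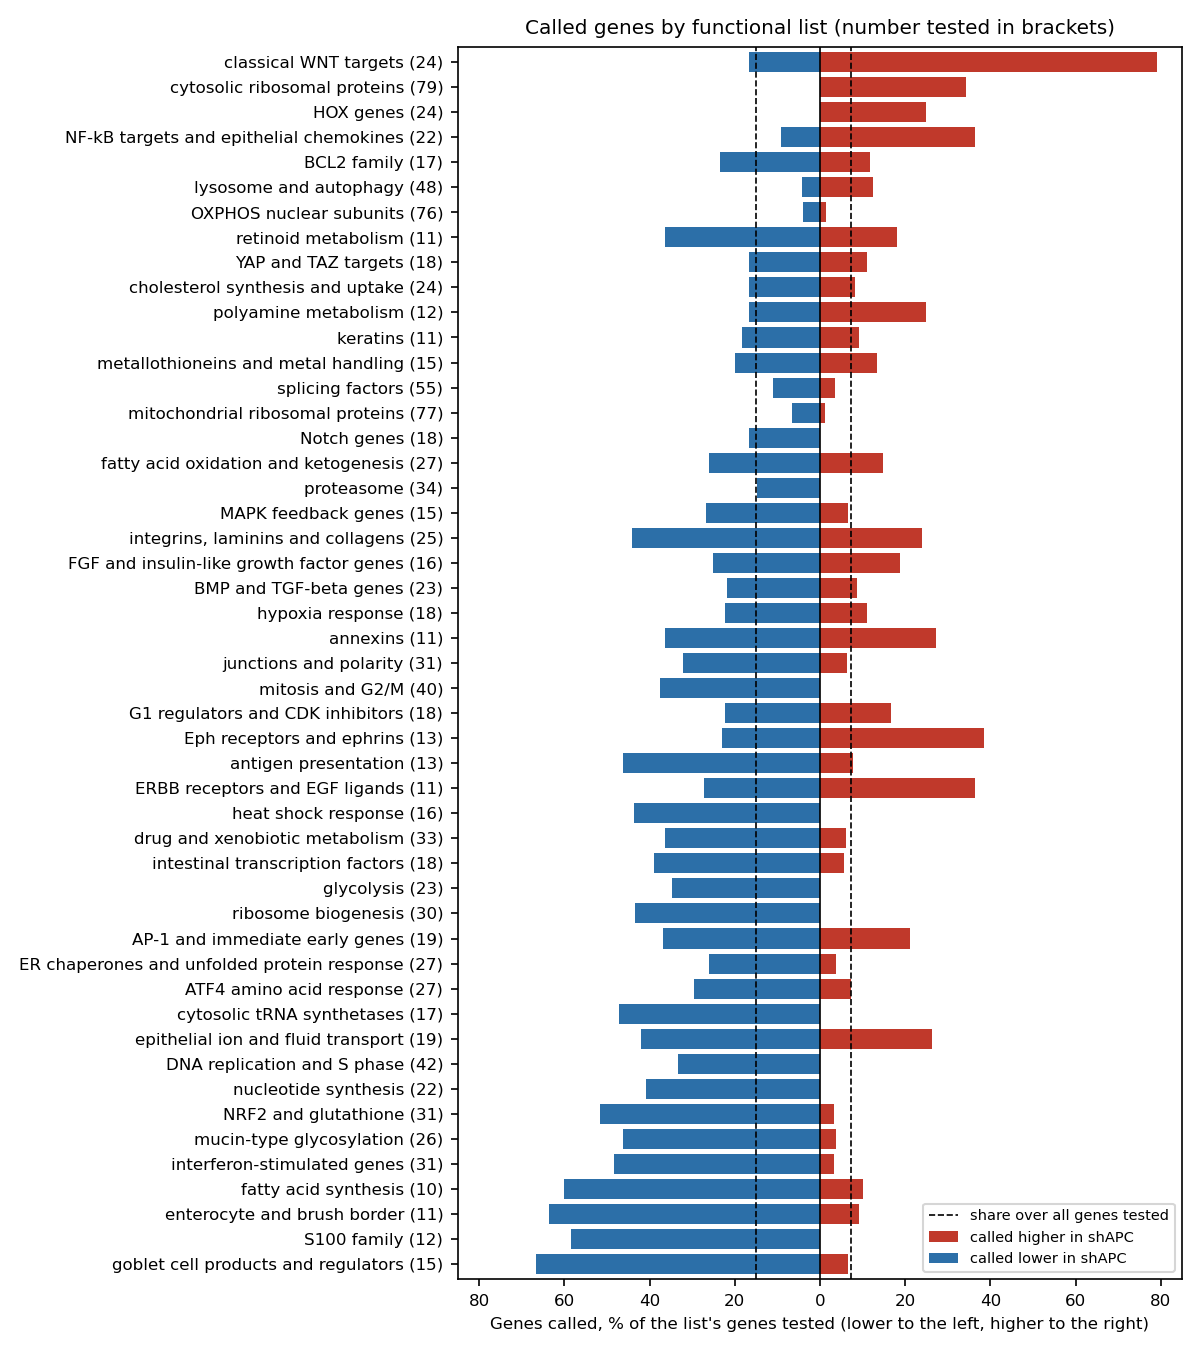
Share of each functional list's tested genes that was called higher (red, to the right) or lower (blue, to the left) in shAPC, in percent, for the lists shown, each with at least 10 genes tested, ordered by median log2 fold change. Dashed lines mark the shares over all genes tested, 7.24% higher and 14.9% lower. Classical WNT targets stand at the top, and goblet cell genes, with 10 of 15 called lower, at the bottom.

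Classical WNT targets are given only as a yardstick. Of 24 tested, 19 were called higher and 4 lower, with a median log2 fold change of 0.70. The rest of the description concerns genes outside that list.

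Among genes outside the WNT list with a mean of at least 5 TPM and no overlap between groups, IGFL4 (ENSG00000204869), a member of the insulin growth factor-like family, rose most. It measured 1.53, 1.51 and 1.81 TPM in shNT1 and 12.8, 13.5 and 8.33 TPM in shAPC, a log2 fold change of 2.23 (SE 0.15, limma adjusted p = 1.2e-05). RGCC (ENSG00000102760), a regulator of the cell cycle, followed, with 3.64, 2.20 and 3.13 TPM against 14.3, 11.4 and 16.6 TPM (1.92, SE 0.15, limma adjusted p = 3e-05). In both genes the lowest shAPC library lay above the highest shNT1 library, which the rule of no overlap requires. PRSS23, a secreted serine protease, went from 5.80, 5.95 and 6.75 TPM to 19, 21.7 and 19.6 TPM (1.56, limma adjusted p = 1.6e-06). RASSF10, a Ras association domain protein, rose by 1.42 from 8.50, 9.49 and 9.71 TPM to 27.8, 24.5 and 26.8 TPM (limma adjusted p = 1.9e-06). MDK (midkine, a secreted heparin-binding growth factor) rose by 1.25 and SOSTDC1 (a secreted antagonist of BMP signalling) by 1.20. The spread of MDK was wide, with 7.77, 8.46 and 3.42 TPM in shNT1 and 15.9, 17.5 and 14.7 TPM in shAPC (SE 0.23, limma adjusted p = 0.0042). ANXA6, a calcium-dependent phospholipid-binding annexin, rose by 1.25, and ATP10B, a phospholipid flippase, by 1.18. The other genes in the top 15 were CXCL8, RETNLB, HIST1H2AC, HIST1H3E, FILIP1L, ERICH2 and LOC101928100.

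REG4 (ENSG00000134193), a secreted lectin of goblet and enteroendocrine cells, fell most among genes chosen by the same rule, from 93.3, 90.5 and 105 TPM in shNT1 to 21, 23.2 and 18.4 TPM in shAPC (log2 fold change -2.15). ANXA13 (ENSG00000104537), an annexin of the intestinal epithelium, followed at -1.94, with 12.2, 12.4 and 12 TPM against 3.01, 1.92 and 2.50 TPM (SE 0.11, limma adjusted p = 4e-06). TM4SF4, a membrane protein of the transmembrane 4 family and among the most abundant of these genes, went from 848, 884 and 857 TPM to 329, 360 and 330 TPM (-1.34, SE 0.05, limma adjusted p = 3.5e-07). In these 3 genes every shAPC library lay below every shNT1 library, which the rule requires. Several of the falling genes encode enzymes. AADAC, a microsomal deacetylase, fell by 1.12, HSD17B2, which oxidises estradiol and testosterone, by 1.10 and HS3ST1, a heparan sulfate sulfotransferase, by 1.09. HEPH (hephaestin), a ferroxidase of iron export from enterocytes, fell by 1.07, from 10.1, 10.9 and 10.6 TPM to 4.52, 4.41 and 4.54 TPM (limma adjusted p = 1.4e-05). CEACAM5 and CEACAM6, adhesion molecules of the carcinoembryonic antigen family, fell by 1.27 and 1.22, whereas CEACAM1 rose by 0.21 (limma adjusted p = 0.019). CEACAM5 and CEACAM6 are close paralogs, as are AKR1B10 and other aldo-keto reductases, and how shared reads were assigned is not given in the sources used here. All 30 genes with the largest rise or fall were called under every alternative setting, and 28 of the 30 had an adjusted p under 0.05 in the same direction in the authors' deposited table. These genes were chosen for their calls and size in the same libraries, and the authors' table covers the same comparison. Neither count is therefore independent support.

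**Figure D2:**
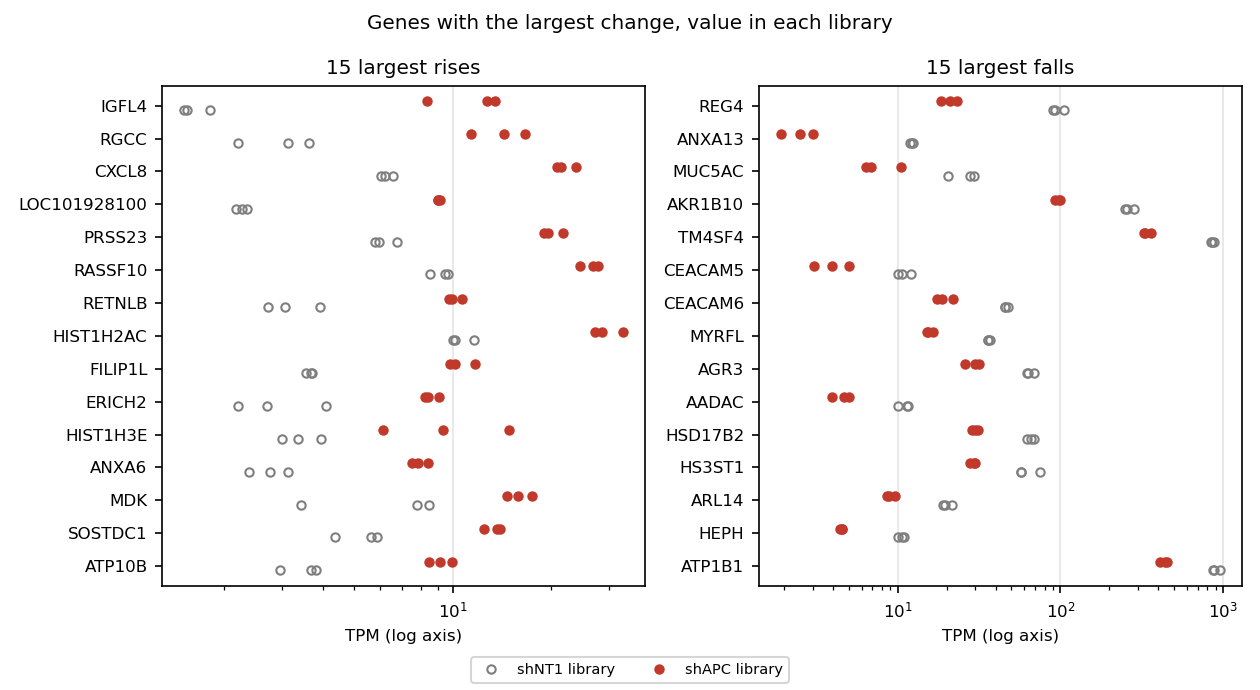
TPM (log axis) of the 15 top risers and the 15 top fallers outside the WNT list, 1 open grey circle per shNT1 library and 1 filled red circle per shAPC library. The groups are apart in each row, as the naming rule requires, and the shAPC circles of HIST1H3E are the most scattered among the rises, from 6.13 to 14.9 TPM.

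Most goblet cell genes tested were lower in shAPC. Of 15 goblet genes tested, 10 were called lower and 1 higher, with a median log2 fold change of -0.68. SPINK4, a secreted protease inhibitor of goblet cells, measured 11.6, 9.0 and 5.40 TPM in shNT1 and 0.606, 0 and 0.706 TPM in shAPC (-2.73, SE 0.25, limma adjusted p = 7.6e-05). It was thus close to 0 in all 3 knockdown libraries. MUC5AC, a gel-forming mucin, went from 29.3, 20.3 and 27.9 TPM to 6.83, 10.5 and 6.43 TPM (-1.6, limma adjusted p = 0.00016), and the trefoil peptide gene TFF1 from 17.5, 11.4 and 11 TPM to 5.65, 6.83 and 5.6 TPM (-1.0, limma adjusted p = 0.0014). AGR2, a disulfide isomerase that serves mucin folding, fell by 0.39 and the related gene AGR3 by 1.13. AGR2 was the most abundant gene of the group, at 1919, 1960 and 1935 TPM in shNT1 and 1433, 1452 and 1538 TPM in shAPC. The regulators behaved unequally: SPDEF, a transcription factor of goblet cell maturation, fell by 0.49 (13.8, 12.1 and 11.4 TPM to 9.03, 8.51 and 7.98 TPM, limma adjusted p = 0.0029), and CREB3L1, a membrane-bound transcription factor, by 0.73. ATOH1, which specifies the secretory lineage, was at a mean of 1.90 TPM in shNT1 and 1.41 TPM in shAPC and was not called (-0.27, limma adjusted p = 0.23). TFF3, another trefoil peptide gene, measured 3.59 and 3.48 TPM and was not called. RETNLB, a resistin-like protein secreted by goblet cells, went against the group, rising by 1.40 from 3.07, 2.71 and 3.93 TPM to 9.93, 10.6 and 9.77 TPM (limma adjusted p = 2.6e-05). In bulk RNA, fewer cells of a type and less RNA per cell cannot be told apart.

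Enzymes that build the sugar chains of mucins were lower in part. Of 26 genes of mucin-type glycosylation tested, 12 were called lower and 1 higher (median -0.21). GALNT3, which starts O-linked chains, went from 138, 140 and 153 TPM to 82.8, 83.6 and 77.0 TPM (-0.82, SE 0.06, limma adjusted p = 1.7e-05). B3GNT3, a chain-extending enzyme, fell by 0.72 (32.3, 30.7 and 31.5 TPM to 18.5, 18.7 and 19 TPM), and GCNT3, which branches the core, by 0.55 (772, 772 and 819 TPM to 543, 553 and 517 TPM). The sialyltransferases ST6GALNAC1 and ST3GAL1 fell by 0.60 and 0.56. GALNT6, another initiating enzyme, rose by 0.64, from 5.86, 5.37 and 7.08 TPM to 10.1, 10.8 and 9.31 TPM (limma adjusted p = 0.0016), so initiating enzymes moved in both directions. GALNT7, GALNT12 and GALNT14 fell by 0.38, 0.45 and 0.41. In each of these 13 called genes the libraries of the groups did not overlap.

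**Figure D3:**
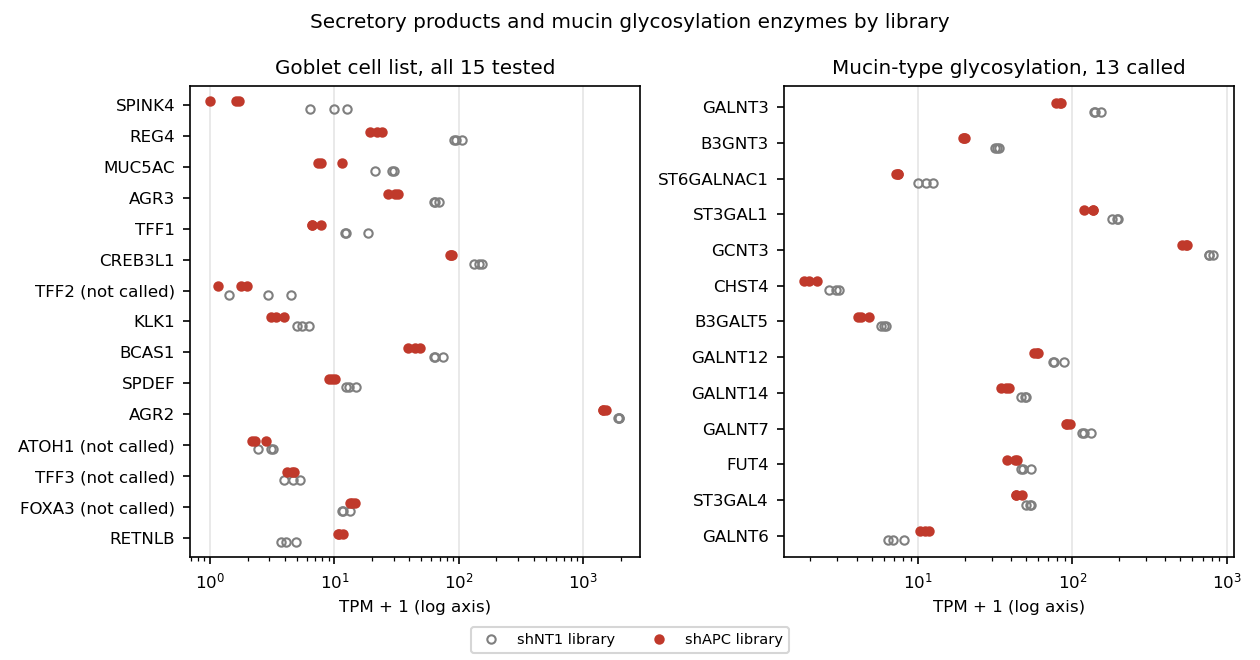
TPM + 1 (log axis) in each library for the 15 goblet cell genes tested (left) and the 13 called genes of mucin-type glycosylation (right), with open grey circles for shNT1 and filled red circles for shAPC. Red circles lie to the left of grey ones in most rows, RETNLB and GALNT6 are the called exceptions, and genes not called are marked as such.

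Several absorptive cell genes were also lower. Among 11 enterocyte and brush border genes tested, 7 were called lower and 1 higher (median -0.27). KRT20, a keratin of mature colonocytes, went from 102, 105 and 112 TPM to 71.4, 63.4 and 73.1 TPM (-0.61), and the lectin gene LGALS4 from 979, 1001 and 874 TPM to 657, 595 and 616 TPM (-0.61). DPP4, a brush border peptidase, fell by 0.31, and EPS8, an actin-capping protein of microvilli, rose by 0.24. VIL1, which encodes villin, lay between 93.4 and 104 TPM in every library. Only 11 of the 36 genes of this list in the table reached 1 TPM, and the rest of the list was not tested.

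Ion transport genes moved in both directions, 5 of 19 higher and 8 lower. ATP1B1, the beta subunit of the sodium pump, fell from 868, 884 and 959 TPM to 442, 452 and 411 TPM (-1.05, SE 0.06, limma adjusted p = 2.5e-06). The chloride channel gene ANO1 fell by 0.70, as did CA2, which encodes carbonic anhydrase II (44.7, 45.3 and 46.7 TPM to 29, 26.6 and 27.6 TPM). Potassium channel genes rose instead. KCNE3, an accessory subunit, went from 42.4, 39.8 and 40.3 TPM to 75.2, 70.4 and 74.7 TPM (0.83, limma adjusted p = 9.3e-06), its pore partner KCNQ1 rose by 0.52, and KCNN4, a calcium-activated channel, by 0.81. AQP3, a water and glycerol channel, rose by 0.59.

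Of 18 intestinal transcription factors tested, 7 were called lower and 1 higher (median -0.15). KLF4, a factor of goblet cell and colonocyte maturation, went from 11, 11 and 9.52 TPM to 5.97, 5.58 and 6.28 TPM (-0.73, limma adjusted p = 0.00027). ONECUT2 fell by 0.72 and KLF5, expressed in proliferating crypt cells, by 0.51. SOX4 rose by 0.81, from 109, 109 and 97.2 TPM to 192, 187 and 177 TPM (limma adjusted p = 1.9e-05). Without shAPC replicate 2 or shAPC replicate 3, the genes called lower numbered 4 and 3. S100 genes, which encode small calcium-binding proteins, had 7 of 12 members called lower and none higher (median -0.30). S100A6 was the most abundant of those named, at 3707, 3629 and 3551 TPM in shNT1 and 2541, 2815 and 2883 TPM in shAPC (-0.40, limma adjusted p = 0.0014), and S100A5 fell by 0.94. S100A10 and its partner ANXA2 fell by 0.29 and 0.40, while among the other annexins ANXA10 fell by 0.84 and ANXA3 rose by 0.28.

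Several chemokine genes rose. Of 22 NF-kB targets and epithelial chemokines tested, 8 were called higher and 2 lower, with a median log2 fold change of 0.13. NF-kB is a family of transcription factors that switch on inflammatory genes, among them CXCL1, CXCL2, CXCL3 and CXCL8, whose products attract neutrophils. The 250 bases upstream of the RefSeq start of CXCL8 (chr4:73740319-73740568, plus strand, GRCh38.p14) and CXCL1 (chr4:73869143-73869392, plus strand) are shown because both rose and both hold the NF-kB pattern GGNNNTTCC, whose matches on either strand are in capitals. Both stretches are promoter sequence ahead of the transcript.
CXCL8: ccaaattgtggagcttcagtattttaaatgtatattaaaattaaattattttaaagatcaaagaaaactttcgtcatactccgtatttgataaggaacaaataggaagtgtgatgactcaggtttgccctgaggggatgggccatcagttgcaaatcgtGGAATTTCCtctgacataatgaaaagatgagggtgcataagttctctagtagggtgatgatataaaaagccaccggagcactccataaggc
CXCL1: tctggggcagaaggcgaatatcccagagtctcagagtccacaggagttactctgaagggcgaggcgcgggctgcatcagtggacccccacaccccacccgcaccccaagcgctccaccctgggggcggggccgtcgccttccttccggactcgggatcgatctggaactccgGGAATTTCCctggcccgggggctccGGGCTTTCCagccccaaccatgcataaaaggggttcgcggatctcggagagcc

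CXCL8 has 1 match, which begins 91 bases before the start, and CXCL1 has 2, at 78 and 53 bases. RefSeq promoters of the table used held the pattern in 17.1% of 27305 cases. Among list members with a promoter in that table, 14 of 18 tested genes held it. These were 7 members called higher, both members called lower, and 5 that were not called (CXCL11, CCL20, NFKBIA, NFKB1 and BIRC3), while RELB had no promoter in the table. The pattern was thus present in members that rose, fell or were not called. The TCF and LEF pattern CTTTGAT, present in 2.28% of all promoters, occurred on either strand in the window of CXCL8 and in no other of the 9 largest risers with a promoter in the table. A match is a description of letters, and no factor binding was measured.

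CXCL8 (ENSG00000169429), which encodes interleukin-8, measured 6.23, 6.05 and 6.57 TPM in shNT1 and 20.9, 21.4 and 23.8 TPM in shAPC (1.66, SE 0.07, limma adjusted p = 6.3e-07). CXCL1, CXCL2 and CXCL3 rose by 1.16, 0.80 and 0.97. CXCL1 went from 2.01, 2.86 and 3.21 TPM to 7.29, 7.70 and 6.57 TPM, with no overlap, although these 3 chemokine genes are similar in sequence, so reads may have been shared among them. ICAM1, an adhesion molecule for leukocytes, rose by 0.70 (2.71, 2.36 and 2.45 TPM to 4.91, 4.65 and 4.56 TPM) and TNFAIP3, an inhibitor of NF-kB that is itself induced by it, by 0.77. IL32, a cytokine gene, rose by 1.37 from 0.244, 0.649 and 0.500 TPM to 3.12, 1.71 and 3.73 TPM (SE 0.20, limma adjusted p = 0.0013). Neither NFKB1, a core subunit of the pathway, nor its feedback inhibitor NFKBIA was called. NFKB1 had a mean of 33.3 TPM in shNT1 and 30.5 TPM in shAPC, and NFKBIA 22.9 and 24 TPM. RELB, a subunit, rose by 0.44. NFKBIZ, a nuclear cofactor, fell by 0.67, from 23.3, 25.4 and 21.7 TPM to 16.3, 12.4 and 14.7 TPM (limma adjusted p = 0.0011). Apart from CXCL8, the chemokine and cytokine genes named here had shNT1 levels below 4 TPM.

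Interferon-stimulated genes were lower instead. Of 31 tested, 15 were called lower and 1 higher, with a median of -0.24. IFI27 and IFIT3, called-lower members, are shown over the 250 bases upstream of their RefSeq starts (chr14:94110486-94110735 and chr10:89327747-89327996, both plus strand, GRCh38.p14) because each holds the pattern of an interferon-stimulated response element, taken as GAAA repeated after a gap of 2 bases, more than once, with matches on either strand in capitals.
IFI27: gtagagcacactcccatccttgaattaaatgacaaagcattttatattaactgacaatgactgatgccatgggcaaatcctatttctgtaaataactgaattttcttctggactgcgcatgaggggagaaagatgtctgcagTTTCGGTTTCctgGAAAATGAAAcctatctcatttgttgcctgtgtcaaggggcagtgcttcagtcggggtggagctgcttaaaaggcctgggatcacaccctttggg
IFIT3: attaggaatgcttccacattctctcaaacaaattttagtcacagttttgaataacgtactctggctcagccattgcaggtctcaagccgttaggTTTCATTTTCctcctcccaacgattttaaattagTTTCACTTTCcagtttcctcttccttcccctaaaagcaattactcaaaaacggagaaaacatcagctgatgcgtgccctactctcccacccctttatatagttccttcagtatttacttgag

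The pattern occurred in 3.07% of all RefSeq promoters, in 15 of the 25 tested interferon genes with a promoter in the table, and in 8 of the 12 such genes that were called lower. IFI27, a mitochondrial protein induced by type I interferon, measured 16.7, 15.9 and 13.1 TPM in shNT1 and 6.41, 6.34 and 8.15 TPM in shAPC (-1.03, SE 0.11, limma adjusted p = 0.00018). The oligoadenylate synthetase genes, sensors of double-stranded RNA, fell together: OAS1 by 0.44, OAS2 by 0.67, OAS3 by 0.39 and the related OASL by 0.58. OASL went from 23.6, 23.7 and 20.1 TPM to 15, 13.4 and 15.6 TPM, and IFI44 from 18.2, 18.2 and 18.9 TPM to 12.4, 13 and 14 TPM (-0.46, limma adjusted p = 0.0012). IFITM2, the 1 gene called higher (0.36, limma adjusted p = 0.049), was not called after median-ratio scaling. STAT2, IRF9 and IRF1, the transcription factors of the response, were not called. IFI27 averaged 1.76 TPM in the GFP libraries of the study and 3.80 TPM with forced CTNNB1, against 15.2 TPM in shNT1 and 6.97 TPM in shAPC, so the control hairpin libraries had the highest level of the 4 groups. Of the 13 antigen presentation genes tested, 6 were called lower and 1 higher (2 lower without shAPC replicate 1 and 1 without shAPC replicate 3). CD74, the invariant chain of class II molecules, was the gene that rose, by 0.92 from 1.41, 1.17 and 0.612 TPM to 2.96, 3.0 and 2.61 TPM.

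**Figure D4:**
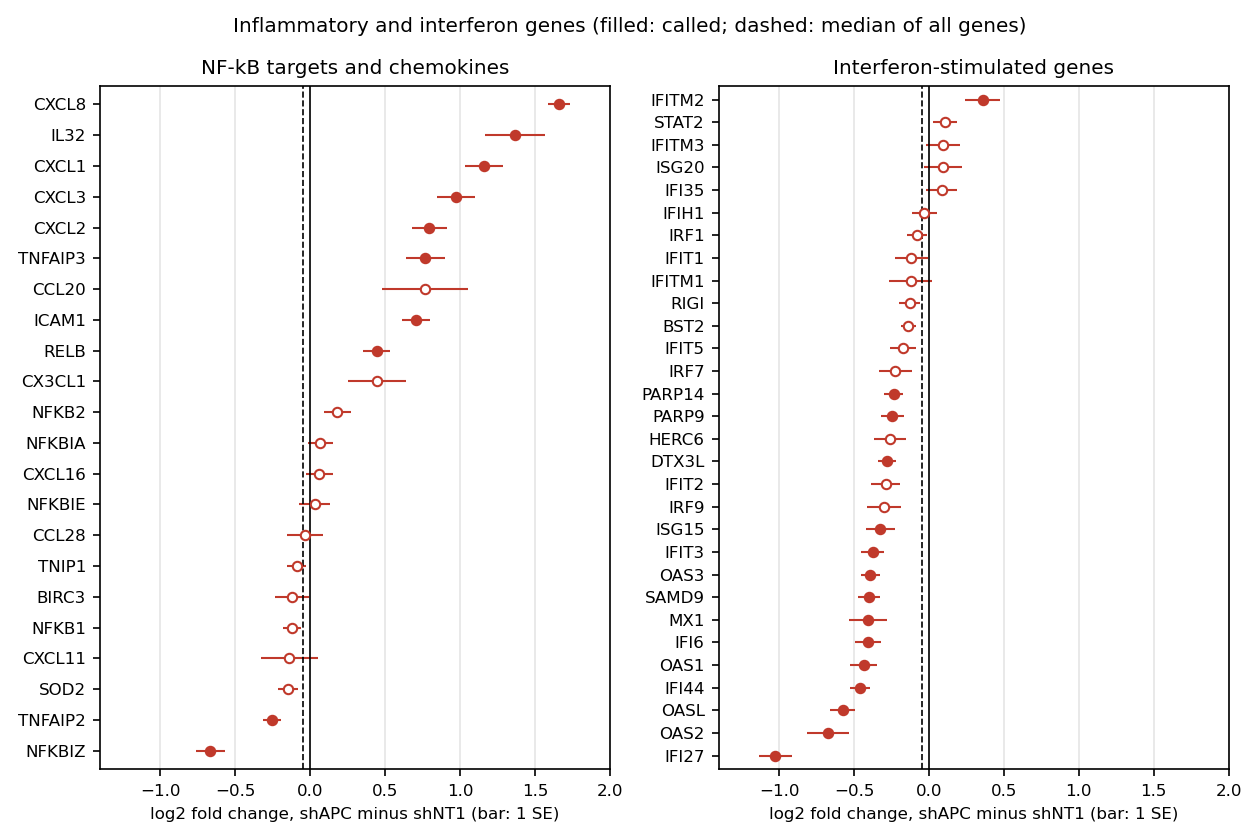
Log2 fold change, shAPC minus shNT1, with a bar of 1 SE, for the 22 NF-kB targets and chemokines (left) and 30 of the 31 interferon-stimulated genes (right) tested. Filled points are called genes and the dashed line is the median of all genes, -0.04. Called chemokine genes lie to the right, up to 1.66 for CXCL8, and called interferon genes lie to the left, down to -1.03 for IFI27, with IFITM2 the called exception.

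Genes of protein synthesis split by role. Of 79 cytosolic ribosomal protein genes tested, 27 were called higher and none lower, with a median log2 fold change of 0.18. Their summed level was between 220535 and 230179 TPM in shNT1 and between 245969 and 268757 TPM in shAPC. The largest called rises were those of RPS3A (1541, 1502 and 1450 TPM to 1809, 1908 and 2047 TPM, 0.36, limma adjusted p = 0.0022), RPL13A (0.34, limma adjusted p = 0.0033) and RPS14 (0.34, limma adjusted p = 0.027), the last of which was not called under quantile normalization (limma adjusted p = 0.073). The median stayed positive under median-ratio scaling (0.22, 33 called) and quantile normalization (0.13, 22 called). The count fell to 7 without shAPC replicate 2, to 5 without shAPC replicate 3 and to 11 without shNT1 replicate 2. Ribosomal protein genes have many processed pseudogenes, so their separate values are uncertain.

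Some ribosome assembly factors went the other way. Of 30 ribosome biogenesis genes tested, 13 were called lower and none higher (median -0.15). NOLC1, a nucleolar chaperone, went from 246, 244 and 273 TPM to 195, 178 and 180 TPM (-0.46, limma adjusted p = 0.00061), RRP9, a component of the small-subunit processome, from 49.0, 48.9 and 49.7 TPM to 36.3, 35.5 and 35.5 TPM (-0.45) and BOP1 fell by 0.35. The count was 7 under quantile normalization, 7 without shAPC replicate 2 and 7 without shAPC replicate 3. Cytosolic tRNA synthetases, which charge tRNAs with amino acids, had 8 of 17 called lower and none higher (median -0.17), led by YARS1 (-0.35) and FARSA (-0.27). That count was 4 under quantile normalization, 4 without shAPC replicate 2 or shNT1 replicate 2, and 3 without shAPC replicate 3 or shNT1 replicate 1. Mitochondrial ribosomal proteins (1 of 77 higher, 5 lower) and nuclear-encoded subunits of oxidative phosphorylation (1 of 76 higher, 3 lower) had shares of called genes below those of all genes. Their directions turned with scaling, to 4 higher and 3 lower and to 3 higher and 2 lower after median-ratio scaling, and to 8 higher and 2 lower and to 6 higher and 2 lower after quantile normalization. Without shAPC replicate 1 the oxidative phosphorylation list had 5 higher and 2 lower, and none was higher without shAPC replicate 2 or 3. The lower count of mitochondrial ribosomal proteins was 2 without shAPC replicate 2 or shNT1 replicate 1 and 3 without shAPC replicate 3.

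Some genes of DNA replication and mitosis were called lower, and none was called higher. Of 42 genes of DNA replication and S phase, 14 were called lower and none higher (median -0.17), and of 40 genes of mitosis, 15 lower and none higher (median -0.12). RRM2, a subunit of ribonucleotide reductase, went from 261, 247 and 267 TPM to 197, 188 and 187 TPM (-0.43, SE 0.05, limma adjusted p = 0.00031). AURKA, a mitotic kinase, went from 151, 150 and 159 TPM to 122, 108 and 113 TPM (-0.43, limma adjusted p = 0.00075), and neither gene overlapped between groups. MKI67 fell by 0.35 (141, 127 and 167 TPM to 120, 119 and 99.5 TPM, limma adjusted p = 0.032), a call that was lost under quantile normalization. Without shAPC replicate 2 the counts were 7 and 7, and without shAPC replicate 3 they were 6 and 7; under quantile normalization the mitosis count was 10. Nucleotide synthesis genes followed, with 9 of 22 lower and none higher (median -0.18), among them IMPDH1 (-0.43) and CTPS1 (-0.35). Their count was 4 under quantile normalization, 4 without shAPC replicate 2 or 3, and 5 without shNT1 replicate 1 or 3.

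Among G1 regulators, which control entry into S phase, 3 of 18 tested genes were called higher and 4 lower. CDC25A, a phosphatase that activates cyclin-dependent kinases, fell from 28.9, 26.8 and 29 TPM to 17.1, 16.7 and 17.3 TPM (-0.70, SE 0.06, limma adjusted p = 5e-05). CDKN1C and CDKN1B, inhibitors of these kinases (p57 and p27), rose by 1.07 and 0.40. CDKN1C was weakly expressed, at 0.916, 0.989 and 1.05 TPM in shNT1 and 3.25, 3.21 and 3.06 TPM in shAPC (limma adjusted p = 1e-04), and CDKN1B went from 59.0, 59.7 and 62.1 TPM to 85.2, 76.0 and 79.2 TPM (limma adjusted p = 0.0011). CDKN2B, which inhibits CDK4 and CDK6, fell by 0.54 and CDK6 rose by 0.35. CDKN1A (p21) had means of 3.09 and 3.57 TPM and was not called. SESN1 and TP53INP1, both stress-response genes, rose by 1.06 and 1.08, SESN1 from 12.3, 11.6 and 13.7 TPM to 29.1, 25.6 and 26.6 TPM (limma adjusted p = 1.9e-05).

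**Figure D5:**
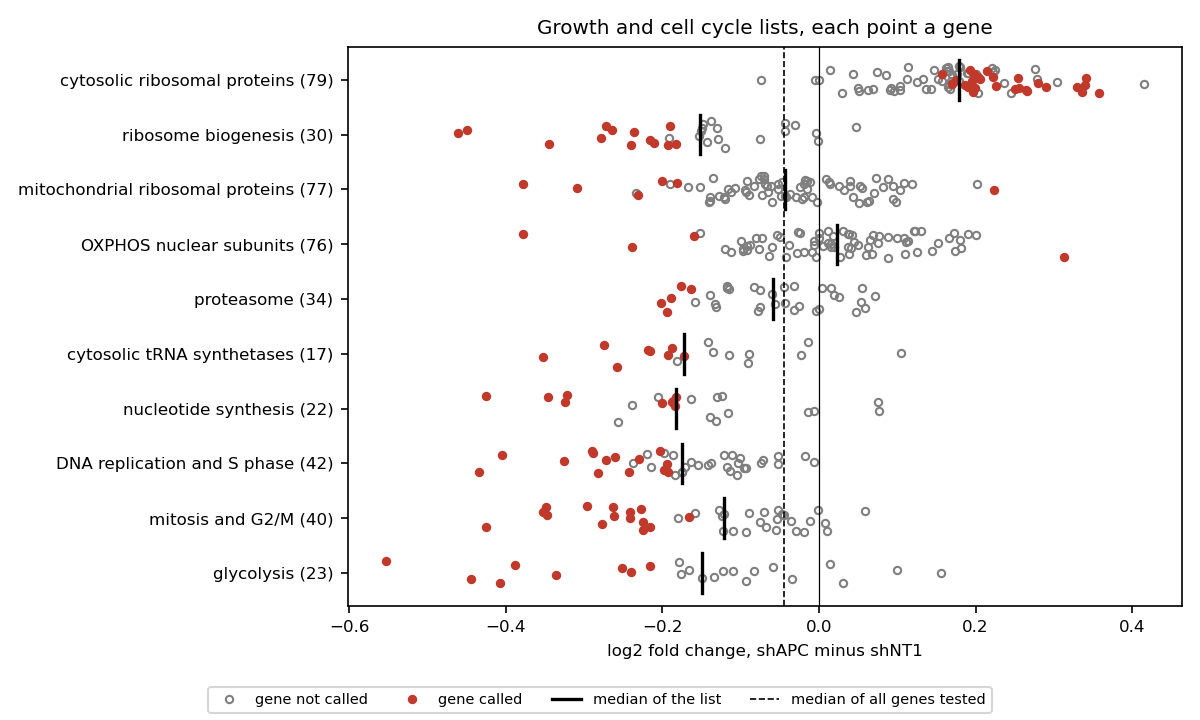
Log2 fold change, shAPC minus shNT1, of every tested gene in 10 lists of protein synthesis, proliferation and energy metabolism, with the number tested in brackets. Red points are called genes, black bars list medians and the dashed line the median of all genes, -0.04. Ribosomal proteins centre at 0.18 and the biogenesis, synthetase, nucleotide and cell cycle lists between -0.12 and -0.18.

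Lipid genes changed mainly on the side of synthesis and desaturation. Of 10 fatty acid synthesis genes tested, 6 were called lower and 1 higher (median -0.26). SCD, the desaturase that makes monounsaturated fatty acids, was the most abundant of those called, at 963, 1001 and 1016 TPM in shNT1 and 553, 572 and 519 TPM in shAPC (-0.86, SE 0.05, limma adjusted p = 6.6e-06). ELOVL6, which elongates palmitate, and ACSL3, which activates long-chain fatty acids, each fell by 0.42. ACSL5, another acyl-CoA synthetase, rose by 0.53 (282, 280 and 272 TPM to 404, 415 and 389 TPM). The cholesterol list had 2 of 24 genes higher and 4 lower, which became 5 and 2 after median-ratio scaling and 8 and 1 after quantile normalization, and its median changed sign (-0.0045 as deposited, 0.04 and 0.07 under those scalings). Its lower count was 1 without shAPC replicate 1, 2 without shAPC replicate 2 or shNT1 replicate 3, and 0 without shAPC replicate 3. Within it TM7SF2, a sterol reductase, rose by 0.71.

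Glycolysis genes were called lower in 8 of 23 cases and higher in none (median -0.15). HK2 and HK1, which phosphorylate glucose, fell by 0.55 and 0.41, and PFKP, a phosphofructokinase, by 0.44. LDHA, which makes lactate, went from 1386, 1337 and 1325 TPM to 1074, 1076 and 1057 TPM (-0.34, limma adjusted p = 0.00097). Redox genes under NRF2, the transcription factor of the oxidative stress response, fell more widely, with 16 of 31 lower and 1 higher (median -0.20). AKR1B10, an aldo-keto reductase, went from 255, 249 and 282 TPM to 97.5, 99.1 and 93.4 TPM (-1.43). SLC7A11, the cystine importer, fell by 0.65 (137, 125 and 110 TPM to 80.3, 82.7 and 72.4 TPM), NQO1, a quinone reductase, by 0.37 and GCLM, a subunit of the enzyme that starts glutathione synthesis, by 0.38. NFE2L2, the gene of NRF2 itself, fell by 0.23 (limma adjusted p = 0.014), and PGD, of the pentose phosphate pathway, was the gene called higher (0.19). Drug metabolism genes had 12 of 33 lower and 2 higher (5 lower without shAPC replicate 3). Among them ALDH1A1, which makes retinoic acid, rose from 1020.5, 1033 and 1039 TPM to 1407, 1377 and 1413 TPM (0.44, limma adjusted p = 0.00015), as did the retinoic acid carrier CRABP2 (0.52). Retinoid metabolism genes as a list did not share that direction, with 2 of 11 called higher and 4 lower. Its lower count was between 0 and 2 with any 1 library left out.

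Genes of the secretory pathway's folding machinery had 7 of 27 members called lower and 1 higher (4 lower without shAPC replicate 1 and 3 without shAPC replicate 3). ERN2, the sensor of unfolded proteins found in mucous epithelia, fell by 0.58, from 11.5, 11.4 and 13.7 TPM to 7.31, 8.52 and 7.52 TPM (limma adjusted p = 0.0016). DNAJB9, a chaperone of the endoplasmic reticulum, rose by 0.83 (18.1, 19.3 and 18.5 TPM to 34.7, 31.3 and 35.9 TPM, limma adjusted p = 3.3e-05). The general chaperones HSP90B1, CALR and PDIA3 fell by 0.22, 0.26 and 0.21, the first of them not called under either alternative scaling. Metallothionein genes MT1X and MT1F, whose products bind zinc and copper, rose by 0.91 and 0.93, MT1X from 28.4, 31.7 and 34.9 TPM to 64.9, 59.4 and 56.3 TPM. They were the called-higher members of 15 metal handling genes, of which 3 were lower (CP, SLC39A14 and TFRC), a count that was 0 without shAPC replicate 1 or 3. Without shNT1 replicate 3, 5 were higher and 1 lower. The most abundant metallothionein gene, MT1E, had means of 281 and 274 TPM and was not called, and members of this family share sequence.

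Growth factor genes changed unequally. AREG and EREG, ligands of the epidermal growth factor receptor, rose by 0.76 and 0.32. AREG was abundant, at 462, 439 and 469 TPM in shNT1 and 763, 781 and 776 TPM in shAPC (SE 0.05, limma adjusted p = 7.8e-06). Other ligands fell, HBEGF by 0.74 (17.6, 15.1 and 11.6 TPM to 8.37, 8.19 and 8.39 TPM) and TGFA by 0.40, and so did the receptor gene EGFR, by 0.48 (33.0, 32.2 and 34.8 TPM to 25, 26.5 and 19.9 TPM, limma adjusted p = 0.0058). Over the family 4 of 11 genes were higher and 3 lower (3 and 4 without shNT1 replicate 3). Immediate early genes, which respond within minutes to such signals, had 7 of 19 lower and 4 higher: KLF6, FOS and JUNB fell by 0.79, 0.74 and 0.52, whereas ATF3 and JUN rose by 0.83 and 0.27. The lower count was 4 without shAPC replicate 2 or 3, and the higher count was 2 without shAPC replicate 1 or shNT1 replicate 1. MAPK feedback genes, transcribed in response to ERK, had 4 of 15 lower and 1 higher, with DUSP4 and SPRY4 at -0.49 and -0.45 and PHLDA1 at 0.63 (2 lower without shAPC replicate 2, shAPC replicate 3 or shNT1 replicate 3). Of 23 BMP and TGF-beta genes, 5 were lower and 2 higher (5 higher after median-ratio scaling and 4 after quantile normalization or without shNT1 replicate 3). TGFBR2, a receptor for transforming growth factor beta, fell by 0.61, from 95.3, 98.9 and 110 TPM to 68.1, 69.0 and 60.8 TPM (limma adjusted p = 0.00026), and the ligand gene TGFB2 by 0.81, whereas TGFBI, an extracellular matrix protein induced by that ligand family, rose by 0.48 (limma adjusted p = 0.00024). FGFBP1, a carrier of fibroblast growth factors, rose by 1.06, from 2.24, 2.25 and 2.15 TPM to 6.03, 6.43 and 4.78 TPM. Its list of FGF and insulin-like growth factor genes had 3 of 16 called higher and 4 lower (2 or 3 lower with any 1 library left out).

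Adhesion genes were called often in both directions. Of 25 integrins, laminins and collagens tested, 11 were lower and 6 higher. The lower ones included parts of the hemidesmosome, the structure that anchors epithelium to laminin: ITGA6 and ITGB4, its integrin pair, fell by 0.47 and 0.62 and COL17A1, its transmembrane collagen, by 0.69. ITGA6 went from 391, 401 and 422 TPM to 293, 316 and 270 TPM (limma adjusted p = 0.00075) and COL17A1 from 25.1, 25.7 and 25.9 TPM to 16.1, 16.5 and 13.9 TPM (limma adjusted p = 0.00015). ITGA3, another laminin-binding integrin, fell by 0.63. The collagen-binding integrins ITGA1 and ITGA2 rose by 0.29 and 0.33. Junction genes had 10 of 31 lower and 2 higher (6 lower without shAPC replicate 3). CDH1, the gene of E-cadherin, went from 327, 337 and 362 TPM to 277, 287 and 251 TPM (-0.33, limma adjusted p = 0.0047). CLDN2, a claudin that forms cation pores, rose by 0.63, from 140, 137 and 142 TPM to 219, 230 and 202 TPM (limma adjusted p = 6.5e-05). Of the cytoskeletal genes CNN3, a calponin, and MYL9, a myosin light chain, rose by 1.01 and 0.84.

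The counts of several other lists follow, to be read against the 7.24% higher and 14.9% lower of all genes. YAP and TAZ targets had 2 of 18 higher and 3 lower, a balance that became 4 and 1 under quantile normalization and 2 and 1 without any 1 library other than shAPC replicate 1. Notch genes had none of 18 higher and 3 lower (2 higher and 2 lower under quantile normalization, 1 lower without shAPC replicate 3 or shNT1 replicate 3). Proteasome subunits had none of 34 higher and 5 lower. All 5 calls were lost under quantile normalization and without shAPC replicate 2, shAPC replicate 3 or shNT1 replicate 1, and leaving out each other library gave 2 or 3. Splicing factors had 2 of 55 higher and 6 lower, against 6 higher and 3 lower under quantile normalization, with 2 lower without shAPC replicate 2 and 3 without shAPC replicate 3, shNT1 replicate 1 or shNT1 replicate 2. Lysosome and autophagy genes had 6 of 48 higher and 2 lower (11 higher under quantile normalization, 3 without shAPC replicate 1 or 3). HOX genes, which encode positional transcription factors, had 6 of 24 higher and none lower (median 0.15), with HOXB4 at 0.58 (9.17, 8.64 and 9.87 TPM to 14.4, 13.3 and 15.1 TPM, limma adjusted p = 0.00068). The HOX count fell to 1 without shAPC replicate 1, to 2 without shAPC replicate 2, shNT1 replicate 1 or shNT1 replicate 2, and to 3 without shAPC replicate 3.

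The study also forced CTNNB1 expression in HT-29 for 2 days, with a GFP control, and those libraries share none with the knockdown. Vector, collection day and doxycycline differ between the arms and cannot be told apart from the perturbation. Of the 15 largest rises named here, 14 were also called higher by limma in CTNNB1 against GFP (16.3% of 11624 genes were), and all 15 of the largest falls were called lower (7.16%). Whether a gene's change differed between the arms was tested as a difference of the 2 effects in 1 fit of 12 libraries, which called 1885 of 11741 genes (16.1%). Among the largest changes it called 2 rises and 8 falls. CXCL8 rose by 1.66 here and by 0.81 with CTNNB1 (difference -0.85, limma adjusted p = 0.00062), and IGFL4 by 2.23 and 1.13 (-1.10, limma adjusted p = 0.0042). ATP1B1 fell by 1.05 here and by 0.33 there (0.72, limma adjusted p = 8.9e-05). KCNE3 rose by 0.83 and 0.82, and its difference of -0.01 was not called.

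Some interferon-stimulated genes were called in opposite directions in the arms. With CTNNB1, 14 of 27 were called higher and none lower, 6 of them (IFI6, IFI27, IFI44, IFIT3, OAS3 and OASL) being called lower here and 1, IFITM2, called higher here, and the difference was positive and called for 20 of 30 genes (15 under each alternative scaling). IFI27 fell by 1.03 here and rose by 0.80 there (difference 1.83, limma adjusted p = 1.4e-05), and OASL fell by 0.58 and rose by 0.85 (1.42, limma adjusted p = 5.9e-05). DNA replication genes were called higher in 9 of 42 cases with CTNNB1, where 16.3% of all genes were, and lower in none (median 0.09). The difference was called for 23 of these genes (9 after median-ratio scaling and 13 after quantile normalization). CDC25A fell here by 0.70 and measured -0.01 with CTNNB1 (difference 0.69, limma adjusted p = 8.9e-05). SCD likewise fell by 0.86 against -0.10 there (0.75, limma adjusted p = 0.00042). In the proteasome list the difference was called for 29 of 34 genes, all negative, and 31 were called lower with CTNNB1 against 5 here. NRF2 genes were lower in both arms, in 16 of 31 cases here and 25 of 31 with CTNNB1.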

How the data were processed

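RNA was sequenced from HT-29 cells with an mRNA library kit, per the labels' protocols. The authors deposited a table of TPM, a relative transcript abundance, for all libraries, and STAR 2.7.3a, limma and hg38 are listed in the submitters' processing notes, with no role or order. The quantification tool, annotation, filters and strandedness are not given in the sources used here, and the depth of each library is unknown. The authors also deposited a table of log2 fold changes, mean log2 expression and p-values for this comparison, used here only to count calls.

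From the TPM, log2(TPM + 1) was fitted with limma 3.58.1 in R 4.3.3, on the 6 libraries and the genes whose mean TPM reached 1, with variances moderated along a trend in mean expression. Calls required a Benjamini-Hochberg adjusted p under 0.05 over all 11834 genes. The difference between the CTNNB1 and shAPC effects was a contrast in 1 fit of all 12 libraries. Of the rows, 27 have date-like names, a mark of spreadsheet conversion, and none is named. The fit was tested on simulated data. The 59 functional lists, 1 of which had no gene in the table, were written with earlier results of these data known, and so were the classical WNT list, the naming rule and the alternatives. List counts and medians are descriptions.

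Genes named by size are the top 15 called rises and the top 15 called falls, if their mean reached 5 TPM, the groups did not overlap and they were not in the WNT list. Also named are up to 3 called members per list and direction with the largest change, members with a defined role, APC and CTNNB1. Alternatives were median-ratio scaling, quantile normalization, adding 0.1 in place of 1 before the logarithm, keeping all genes or only those reaching 5 TPM, no variance trend, 1 fit of 12 libraries, a replicate block, and each library left out in turn. Motifs were searched on both strands in the 250 bases before the RefSeq start (GRCh38.p14), with 8968 of the genes tested matched by symbol. Some genes and lists are not reported here.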

Additional observations from a re-analysis of the deposited data

How the results depend on the processing

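Of the 258 genes selected by the naming rule, those called kept their direction in every alternative in which they were fitted. Nearly all were selected for being called, which makes a kept direction likely. Calls were lost for 53 of them without shAPC replicate 3 and for 53 without the expression filter. The losses were 46 without shAPC replicate 1, 44 without shAPC replicate 2 and 39 with the replicate block. Several functional lists had more lower than higher calls as deposited and the opposite under quantile normalization, among them cholesterol, mitochondrial ribosomal protein, oxidative phosphorylation, splicing, YAP and TAZ, and fatty acid oxidation genes (4 higher and 7 lower, then 7 and 5). Under quantile normalization 1339 genes were called higher against 857 as deposited. Leaving out 1 library gave between 1484 and 2252 called genes (2615 with all), between 550 and 853 higher (857) and between 909 and 1577 lower (1758). Members of the functional lists that were called numbered between 276 and 411 in those fits, against 454 with all libraries. The smallest totals came without shAPC replicate 3 and shAPC replicate 2, and the cause was not tested. Same-numbered shNT1 and shAPC libraries had a mean correlation of deviations from their group means of -0.12, so the replicate numbers did not show pairing. The 0.06 for different numbers follows largely from that value, because deviations within a group cancel out. With the replicate block 1153 genes were called lower (1758 without), and the difference between the CTNNB1 and shAPC effects was called for 1145 genes (1885 without). Without sequencing depth no detection limit can be given for weakly expressed genes.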

Other observations

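A pair of further groups were put together only after their values had been seen, so their counts describe a choice and support nothing. Among 50 tested genes of the histone clusters, 8 were called higher by limma and 3 lower. HIST1H2AC, a histone H2A gene, rose by 1.40, from 10.2, 11.6 and 10.0 TPM to 33.2, 28.6 and 27.3 TPM. HIST1H2BK rose by 0.84 (37.6, 36.2 and 36.2 TPM to 65.7, 70.7 and 62.9 TPM), HIST1H2BD by 0.97 and HIST1H1C, a linker histone gene, by 0.58. HIST1H2BO, HIST2H2BC and HIST1H2AM fell by 1.26, 0.57 and 0.56, the first with widely spread libraries (1.63, 5.75 and 3.40 TPM to 0.380, 1.83 and 0.454 TPM). Many histone genes are near-identical copies, so their separate values are uncertain.

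Among 30 tested genes known as FOXO targets or as markers of resting cells, 13 were called higher and 2 lower (median log2 fold change 0.18). TXNIP, a regulator of glucose uptake and thioredoxin, rose from 80.2, 81.2 and 86.6 TPM to 133, 117 and 124 TPM (0.58, limma adjusted p = 0.00014). KLHL24 and PNRC1 rose by 0.88 and 0.82, KLHL24 from 13.3, 13.1 and 11.8 TPM to 25, 23.2 and 24.5 TPM. CCNG2, a cyclin of cell cycle arrest, rose by 0.53 and BTG2, an antiproliferative gene, by 0.57, and in all of these genes the groups did not overlap. KLF6 and INSR were the members that fell. SESN1, TP53INP1 and CDKN1B belong to this group as well as to those of the report. In CTNNB1 against GFP, 16 of the 30 genes were called higher and 1 lower.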
